A study of Mus musculus with 88 samples.

Results

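The Rab GTPases are small membrane switches, described here in mouse dendritic cells given lipopolysaccharide (LPS) and followed by pulsed SILAC mass spectrometry. Protein groups (1 entry for proteins that share their peptides) of the trypsin digest were taken when their first gene name was Rab, a number and at most 1 letter. This gave 34 Rab groups among the 5899 groups kept of 6266. The Rab11fip and Rab3gap proteins, which act on Rabs, were kept apart as an effector group of 4, so that there were 38 members in all.

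Each Rab cycles between a GTP-bound form on a membrane and a GDP-bound form that a dissociation inhibitor holds in the cytosol. Exchange factors load GTP, GTPase-activating proteins (GAPs) end the active state, and effectors bound by the active form move, tether or fuse vesicles. In dendritic cells these steps carry cargo taken up from outside through endosomes to lysosomes and bring antigen receptors and cytokines to the surface.

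The cells were derived with GM-CSF from bone marrow (female C57BL/6J mice) and pooled before stimulation, per the labels. They were grown in M-labelled medium (Arg6, Lys4) and switched at 0 h to H-labelled medium (Arg10, Lys8). M is therefore the form present before the switch, and H the form synthesised afterwards. Both were read against L, a common mix of unlabelled cells. LPS of E. coli K12 at 100 ng/ml was compared with a mock arm that had no stimulus. There were 42 trypsin runs in 21 groups of 2: the start (0 h), and each arm at 10 times between 0.5 and 24 h. The 84 M and H channels of these runs and 4 unlabelled 0 h samples digested with AspN or LysN made up the 88 samples. The protocol text covers harvests up to 12 h, and the handling of the 24 h samples is not described there. Whether the runs of a group were separate cultures is not in the labels. The p-values therefore rest on the spread of these runs alone, which may be technical.

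The number of M/L peptide pairs was 68083 to 109064 per run. As a check of the labelled cell type, 0 h abundance was read for dendritic markers. Itgax, H2-Aa, Cd74 and H2-Ab1 lay at percentiles 62.4, 64.5, 87 and 89.5, and Cd86 was listed without a percentile. Flt3, Zbtb46, Ccr7, Cd83 and Cd80 were not listed. Lymphocyte markers were not listed either (0 of 9), but granulocyte markers (12 of 12) and macrophage markers (7 of 9) were. Of the latter, S100a9, Lyz2, S100a8, Chi3l3 and Ngp lay above these dendritic markers, at percentiles 100, 99.7, 99.6, 98 and 90.2. Others lay below all of these dendritic markers, down to Mmp9 at 34.6 and Fcgr1 at 34. Late after the stimulus, the summed total ratio of 7 granulocyte markers was 10.3 to 12.6 with LPS and 13.9 to 18.1 in mock runs, and that of 6 macrophage markers 4.5 to 5.09 and 6.78 to 8.43. The 4 dendritic markers summed to 3.27 to 4.34 with LPS and 3.59 to 4.35 in mock runs, and the 1 erythroid and platelet marker measured in every run to 0.712 to 1.31 and 1.45 to 1.86. The part of these markers in the results was not tested, and in bulk cells fewer cells of a type cannot be told apart from less protein per cell.

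Among the 34 Rab groups, 18 had an M/L ratio and 17 an H/L ratio in all 42 runs. Rab3a, a Rab of regulated secretion, and Rab44, a large atypical Rab, had no M/L ratio in any run. The median number of M/L pairs per run was 67.5 for Rab1A, 48 for Rab7a, 46.5 for Rab11b, 28 for Rab8b, 15.5 for Rab10, 12 for Rab18 and 4 for Rab3d. In the effector group it was 14.5 for Rab11fip1 and 17.5 for Rab11fip5. The Rabs share stretches of sequence, and this sets which groups can be read alone. Rab1 and Rab1A are now both named Rab1a, and 20 of the 21 peptides of Rab1 also lay in Rab1A. Rab1b shared 10 of its 20 peptides, and Rab8a and Rab8b shared 5 with each other. Rab11b had 1 unique peptide of 18 and its group also carried the name Rab11a, and the group of Rab6a carried the name Rab6b. Values of these groups are uncertain as to which copy they belong to. Rab33b rested on 1 peptide, and Rab1 had 0 unique peptides and 1 that was assigned to its group.

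New protein late after LPS was tested for 21 of the 34 Rab groups and for all 4 effector-group proteins. The other 13 (Rab3a, Rab5a, Rab9, Rab12, Rab13, Rab19, Rab20, Rab22a, Rab24, Rab27a, Rab39a, Rab43 and Rab44) had fewer than 4 of 6 late values in an arm or, for Rab5a, no value at 9 h. Late means 6, 9 and 12 h, with 6 runs in each arm. The 250 bases before the start of the gene are shown for Rab8b and Rab11fip5, because their new protein passed the late test in opposite directions. Sequences are from RefSeq on build GRCm38.p6, minus strand, with Rab8b at chr9:66919706-66919955 and Rab11fip5 at chr6:85374635-85374884. Capitals mark matches on either strand to GGG and CC with any 5 bases between (an NF-kB type motif), GAAA and GAAA with any 2 between (interferon response), TTC and GAA with any 3 between (STAT) or CACGTG (E-box).
Rab8b: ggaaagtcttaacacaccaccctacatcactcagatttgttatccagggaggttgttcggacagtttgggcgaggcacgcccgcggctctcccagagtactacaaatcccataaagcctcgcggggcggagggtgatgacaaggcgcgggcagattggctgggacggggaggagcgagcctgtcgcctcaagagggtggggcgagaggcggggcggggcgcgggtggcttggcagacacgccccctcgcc
Rab11fip5: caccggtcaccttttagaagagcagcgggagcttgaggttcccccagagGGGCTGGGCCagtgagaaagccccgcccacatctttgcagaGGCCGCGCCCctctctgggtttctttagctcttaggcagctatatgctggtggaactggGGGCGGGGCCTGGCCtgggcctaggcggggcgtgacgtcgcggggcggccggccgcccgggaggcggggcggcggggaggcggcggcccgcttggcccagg
The Rab11fip5 window held 4 matches, all to the NF-kB type motif, and the Rab8b window held none. This motif was in 45.8% of 32851 promoters of this length and in 28 of the 40 promoters of members (70%). It can overlap the GC box GGGCGG, which occurred 5 times in the Rab11fip5 window and 2 times in that of Rab8b, and in 32.7% of all promoters. The GC box too was in 28 of the 40 promoters of members (70%). Matching letters are a description of the windows and not a measure of binding. Of 37 member symbols, 33 had a promoter in the table, and Rab11fip1 and Rab18 had none.

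At 0 h the levels of the Rabs spanned a wide range, led by Rab7a, Rab11b and Rab1A. Abundance was read as iBAQ, intensity per peptide that the protein can yield, in the M channel of both 0 h runs, and ranked among 4514 groups. Of 28 Rab groups ranked, 16 lay above percentile 50. Rab7a, which drives transport to lysosomes, had log10 iBAQ of 8.67 and 8.84 and percentile 93. Rab11b, of the recycling endosome, had 8.60 and 8.80 and percentile 92.6 in a group that also carried the name Rab11a. The other digests listed the 2 names apart, with Rab11b at percentile 44.3 and Rab11a at 70 with AspN, and 82.1 and 18.9 with LysN. Rab1A, which acts between the endoplasmic reticulum (ER) and Golgi, had 8.64 and 8.63 and percentile 91.6. The spread between runs was as large as the gaps among these 3, so their order is not settled. Rab5c of the early endosome, Rab8b and Rab14 followed at percentiles 87.7, 87.6 and 85. Rab11fip5 and Rab11fip1 lay in the middle, at 52.9 and 52.3, and Rab43, Rab24 and Rab33b were lowest at 14.8, 14 and 11.8. The 2 runs of Rab24 and of Rab33b differed by more than 1 log10 unit. The median percentile of the Rab groups with a value, taken in each run and averaged over the 2 runs, was 67.2 with trypsin, 62.2 with LysN and 52.4 with AspN.

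**Figure D1:**
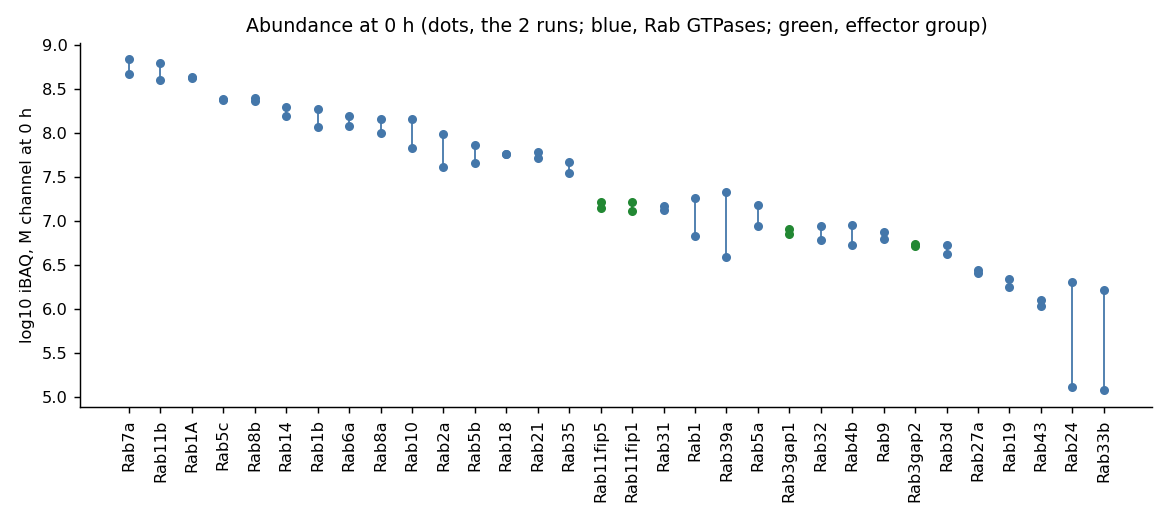
Abundance of the members at 0 h, as log10 iBAQ of the M channel (vertical axis) for each protein group (horizontal axis, ordered by level). Dots are the 2 runs joined by a line, with Rab GTPases in blue and the effector group in green. Rab7a, Rab11b and Rab1A lie highest, and Rab24 and Rab33b lie lowest with the widest gaps between runs.

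Late after LPS, 2 effectors of Rab11 moved in opposite directions, and among the Rab GTPases themselves the new protein of Rab8b rose. Each difference is LPS minus mock on the log2 scale, given with its SE and an adjusted p from limma with Benjamini-Hochberg adjustment over all proteins tested. Of the 3316 proteins tested for new protein, 12.3% were called at an adjusted p under 0.05, 10.6% higher and 1.75% lower. Of the 21 Rab groups tested, 1 was called higher and 0 lower, with a median of 0.16 and a range of -0.32 to 0.91, beside a median of 0.03 over all proteins. In the effector group 1 was called higher and 1 lower. New protein is the H/L ratio divided by a run factor, the median level of each run.

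Rab11fip1 (Rab-coupling protein) links Rab11 to the return of receptors from endosomes to the surface. Its scaled H/L late after LPS was 0.529 at the lowest, 0.812 at the median and 0.907 at the highest, against 0.102, 0.138 and 0.418 in mock runs. All 6 LPS runs lay above all 6 mock runs. The difference was 2.28 ± 0.21 (adjusted p = 9.10e-09, 6 against 6 runs). In time, the 0 h runs read 0.0685 and 0.13, which is signal before any H label could be made into protein and sets the floor. At 2 h the LPS runs read 0.188 and 0.19 and the mock runs 0.16 and 0.141. At 3 h they read 0.443 and 0.376 against 0.14 and 0.147, so that the arms had drawn apart by then. At 12 h the LPS runs held 0.814 and 0.766, while the mock runs, at 0.163 and 0.418, differed from each other. At 24 h the values were 0.714 and 0.773 with LPS and 0.204 and 0.203 without, a difference of 1.87 ± 0.36 (adjusted p = 6.33e-04). Of the 3095 proteins tested at 24 h, 10.2% were called.

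Rab11fip1 made before the switch did not separate the arms, with late M/L ranges that overlapped, so its higher level went with the new form. Its total, M/L plus H/L, was 0.995, 1.3 and 1.43 (lowest, median, highest) late after LPS and 0.516, 0.622 and 0.887 in mock runs, with no overlap. The total rose by 0.95 ± 0.08 (adjusted p = 2.24e-09), and H/M, which uses neither the L mix nor the run factor, rose by 2.26 ± 0.25 (adjusted p = 2.61e-07, called for 12.4% of proteins). When new protein was taken from summed channel intensities instead of the ratios, the difference was 1.15 (adjusted p = 0.201) and the total 0.38 (adjusted p = 0.879), both no longer called. With the 0 h signal subtracted, the difference in new Rab11fip1 was 4.23 (adjusted p = 3.86e-06).

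Rab11fip5 (Rip11, also called Gaf-1), the other Rab11fip protein of the trypsin digest, is also a Rab11 effector and binds recycling and secretory vesicles. Its scaled H/L late after LPS was 0.0514, 0.0802 and 0.0858 (lowest, median, highest), against 0.121, 0.202 and 0.32 in mock runs, so every LPS run lay below every mock run. The difference was -1.36 ± 0.28 (adjusted p = 0.00113). The LPS values lay no higher than the 0.135 that was the median of all proteins at 0 h, before H label, so the size of this fold depends on that background. With the 0 h signal subtracted, new Rab11fip5 could not be tested, so its fall has no estimate corrected for background. Its protein made before the switch was lower too. Its M/L was 0.504, 0.619 and 0.816 with LPS and 0.744, 0.884 and 0.911 without. These ranges overlapped, but LPS was lower in 6 of 6 pairs matched by time and replicate number, and the form fell by 0.42 on the log2 scale (-0.42 ± 0.06, adjusted p = 1.27e-05). The total, 0.556, 0.702 and 0.896 against 0.949, 1.03 and 1.19, fell without overlap (-0.56 ± 0.07, adjusted p = 7.42e-07), and H/M fell as well (-0.92 ± 0.26, adjusted p = 0.0189). Without the runs of replicate 2, the new-protein difference was -1.42 (adjusted p = 0.0901), and without those of replicate 1 the total was -0.54 (adjusted p = 0.0529). The call in M/L ended without replicate 1 (-0.40, adjusted p = 0.0993) and without the run factor (-0.25, adjusted p = 0.933). Without the run factor the late total was -0.39 (adjusted p = 0.89).

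At 24 h the gap in Rab11fip5 was wide in both runs of each arm. Its scaled H/L was 0.175 and 0.18 with LPS and 0.58 and 0.572 in mock runs, a difference of -1.70 ± 0.49 (adjusted p = 0.0242). Leaving out any 1 of the 4 runs gave -1.72 to -1.68 with adjusted p of 0.119 to 0.129. Its total was 0.634 and 0.686 against 1.51 and 1.39 and fell by 1.13 on the log2 scale (-1.13 ± 0.12, adjusted p = 3.83e-08).

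Rab8b, which with Rab8a directs vesicles to the plasma membrane, was the Rab called in new protein. Its scaled H/L late was 0.14, 0.227 and 0.27 with LPS and 0.0677, 0.136 and 0.174 without. The ranges overlapped, but LPS was higher in 6 of 6 pairs. The difference was 0.79 ± 0.21 (adjusted p = 0.0108), with H/M higher by 0.74 ± 0.20 (adjusted p = 0.0137), though by 0.03 with the normalised ratios (adjusted p = 0.95). At 24 h the runs read 0.326 and 0.34 against 0.277 and 0.254. Its total was 0.658, 0.8 and 0.858 late with LPS and 0.612, 0.646 and 0.789 without, a rise of 0.21 ± 0.07 (adjusted p = 0.0364) that was no longer called without any 1 of 6 single late runs (0.16 to 0.20, adjusted p = 0.0812 to 0.132). The new-protein call ended in 7 of 24 alternatives. It ended without the run factor (0.95, adjusted p = 0.0821; 0.76 and 0.328 when LPS replicate 2 at 12 h was left out too) and with the deposited normalised ratios (0.03, adjusted p = 0.964). It also ended with summed intensities (0.65, adjusted p = 0.485), with 0 h subtracted (1.55, adjusted p = 0.116), without replicate 1 (0.68, adjusted p = 0.132) and without replicate 2 (0.90, adjusted p = 0.103). Rab8a, its near copy, read 0.37 ± 0.45 in new protein (adjusted p = 0.784), with a 95% interval of -0.56 to 1.30 that includes the value of Rab8b. The difference between Rab8a and Rab8b was not tested.

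**Figure D2:**
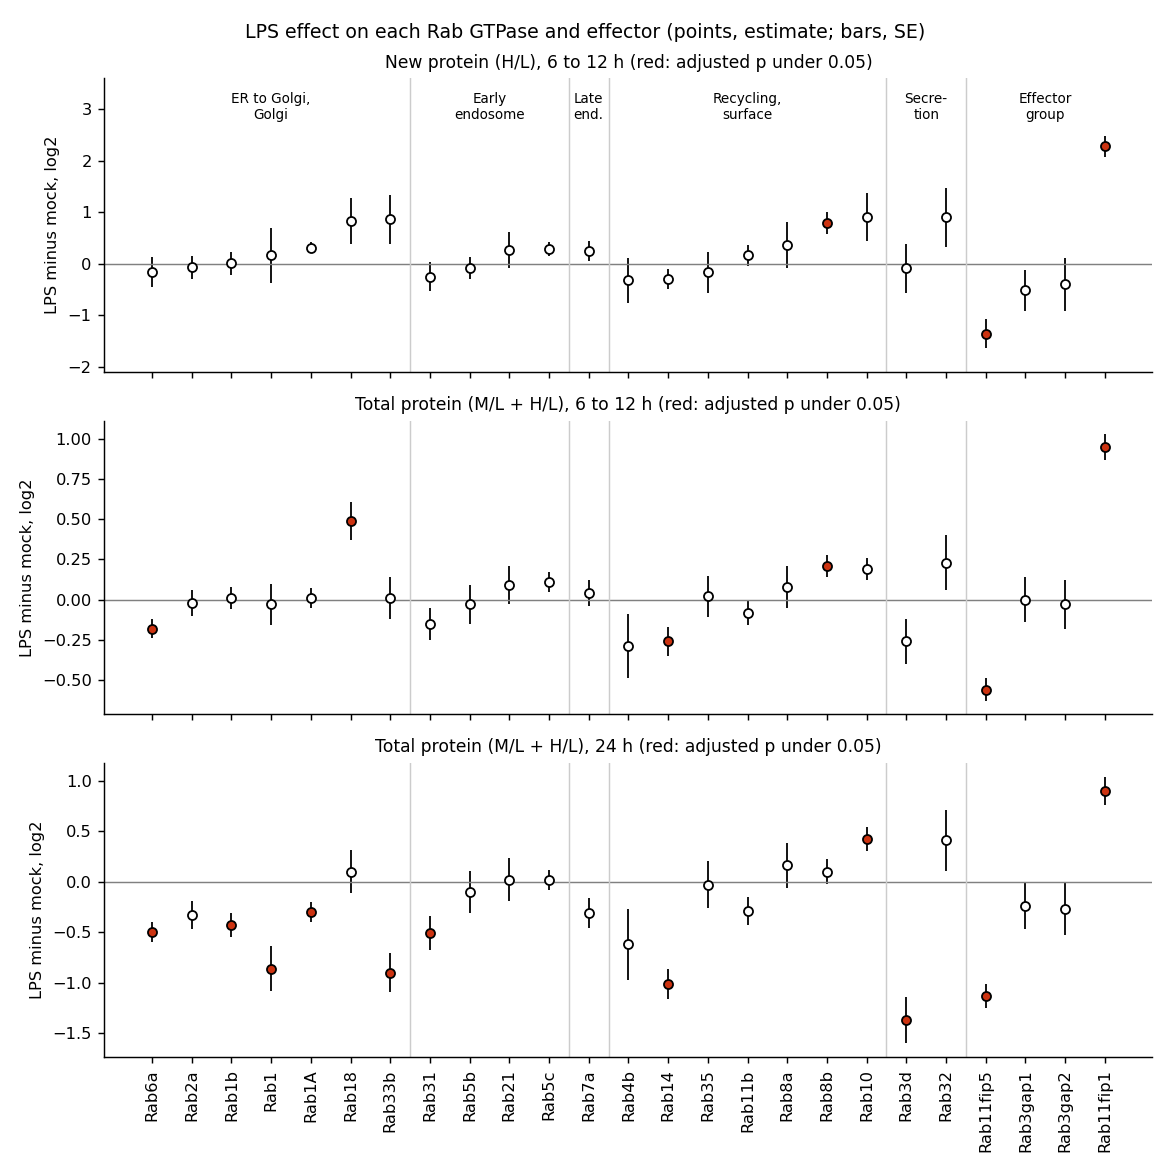
Difference of LPS minus mock (vertical axis, log2; late is the mean of 6, 9 and 12 h) for each member (horizontal axis), grouped by role. The top panel shows new protein and the middle panel total protein, and the bottom panel total protein at 24 h. Points are estimates, bars SE, and red marks an adjusted p under 0.05. Rab11fip1 lies at 2.28 in new protein and Rab11fip5 at -1.36, with the Rab GTPases between -0.32 and 0.91.

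Rab10 and Rab32 had the highest new-protein estimates among the Rabs tested, with wide error. Rab10, which carries receptors such as Toll-like receptor 4 to the surface, read 0.103, 0.175 and 0.238 in late scaled H/L with LPS and 0.0514, 0.0979 and 0.123 without. It was higher with LPS in 6 of 6 pairs, and the estimate was 0.91 ± 0.46 (adjusted p = 0.287). At 12 h the runs read 0.238 and 0.23 against 0.121 and 0.104 (1.05 ± 0.80, limma adjusted p = 0.67). At 24 h they read 0.396 and 0.405 against 0.163 and 0.212. Of the 22 Rab groups tested in new protein at 24 h, 0 were called by limma, beside 10.2% of all proteins. Rab32, of lysosome-related organelles, read 0.133, 0.208 and 0.298 late with LPS and 0.0657, 0.11 and 0.14 without (0.90 ± 0.57, adjusted p = 0.452). At 24 h it read 0.517 and 0.544 against 0.186 and 0.198. Its early values ranged widely between the 2 runs of a group.

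In the ER to Golgi group, 7 Rabs were tested in new protein and 0 called by limma. Rab18, which acts at the ER and on lipid droplets, read 0.139, 0.28 and 0.909 late with LPS and 0.121, 0.212 and 0.245 without (0.83 ± 0.45, adjusted p = 0.334). The high values were replicate 1 at 9 and 12 h, at 0.758 and 0.909, where replicate 2 read 0.235 and 0.275. Rab33b, a Golgi Rab also tied to autophagy, gave 0.86 ± 0.47 (adjusted p = 0.394) from 5 LPS and 4 mock values. Rab1A read 0.31 ± 0.11 (adjusted p = 0.07), and with the replicate number as a block the same difference was called (adjusted p = 0.0242). At the low end, Rab4b of fast recycling read -0.32 ± 0.44, Rab14 -0.30 ± 0.20 (adjusted p = 0.502), Rab3gap1 -0.52 ± 0.40 and Rab3gap2, its partner in the Rab3 GAP complex, -0.40 ± 0.52, none of them called.

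Of the early endosome, Rab5b, Rab5c, Rab21 and Rab31 were tested and lay between -0.25 and 0.29. Rab7a, the main late endosome Rab, read 0.25 ± 0.19 with an interval of -0.15 to 0.65. Rab19 had too few values for a test, with H/L in 4 late LPS runs and 1 late mock run.

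**Figure D3:**
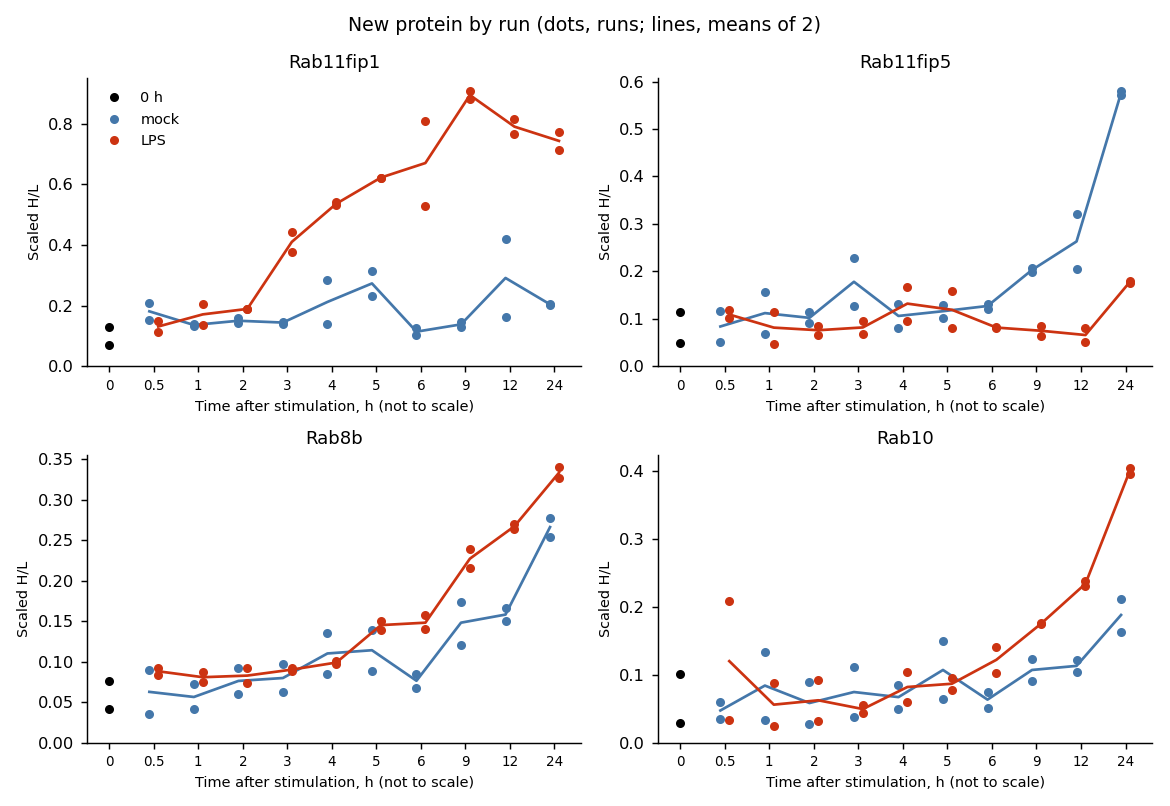
Scaled H/L (vertical axis, new protein) by time after the stimulus in h (horizontal axis, not to scale) for Rab11fip1, Rab11fip5, Rab8b and Rab10. Dots are runs and lines means of 2, with 0 h in black, mock in blue and LPS in red. Rab11fip1 with LPS is above mock from 3 h, at 0.443 and 0.376 against 0.14 and 0.147, and mock Rab11fip5 reaches 0.58 and 0.572 at 24 h.

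In total protein late after LPS, 19.8% of 3316 proteins were called, 10.2% higher and 9.59% lower. Of the 21 Rab groups tested, 2 were higher (Rab8b and Rab18) and 2 lower (Rab14 and Rab6a), with a median of 0.01 beside 0.00 over all proteins. Rab18 totals were 0.888, 1.07 and 1.62 with LPS and 0.715, 0.824 and 0.979 without, higher in 6 of 6 pairs (0.49 ± 0.12, adjusted p = 0.00549). This rested on replicate 1: without it the difference in Rab18 was 0.22 (adjusted p = 0.171), and without replicate 2 it was 0.75 (adjusted p = 0.109). Rab10 stood just outside, at 0.19 ± 0.07 (adjusted p = 0.0519), and was called with the replicate block (adjusted p = 0.0478).

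Rab14, which works between the Golgi and endosomes and on phagosomes, had totals of 0.734, 0.864 and 1.01 with LPS and 0.91, 1.04 and 1.21 without. The ranges overlapped, but LPS was lower in 6 of 6 pairs (-0.26 ± 0.09, adjusted p = 0.0376). The call in the Rab14 total ended without replicate 1 of LPS or replicate 2 of mock at any of 6, 9 and 12 h (-0.25 to -0.19, adjusted p = 0.087 to 0.159). Rab6a, of transport within and to the Golgi, had totals of 0.651, 0.707 and 0.738 against 0.749, 0.791 and 0.89, with every LPS run below every mock run (-0.18 ± 0.06, adjusted p = 0.0301). Leaving out single late runs ended the Rab6a call for 7 of the 12, with differences of -0.19 to -0.14 and adjusted p of 0.0502 to 0.124. Without the run factor Rab14 read -0.10 and Rab6a -0.02. The mean run factor was higher by 0.17 (log2) in the late LPS runs, but by 0.01 without LPS replicate 2 at 12 h, whose factor of 0.692 stood apart from the -0.353 to 0.208 of the other replicate 2 runs. Without both that run and the run factor, Rab14 read -0.32 and Rab6a -0.19, neither of them called.

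The protein made before the switch was lower for both as well, but it makes up most of their total, so the readings are not independent. Of 3432 proteins tested in this form, 17.1% were called, 3.53% higher and 13.6% lower, and of the 22 Rab groups tested 0 were higher and 2 lower. M/L of Rab14 was 0.662, 0.755 and 0.906 with LPS and 0.799, 0.913 and 1.06 without (-0.26 ± 0.09, adjusted p = 0.0498), a call that ended when any of 7 single runs was left out (adjusted p of 0.0518 to 0.198). M/L of Rab6a was 0.546, 0.585 and 0.657 against 0.614, 0.668 and 0.743 (-0.18 ± 0.04, adjusted p = 0.00337). The Rab6a call ended without the run factor (-0.02, adjusted p = 0.983), without replicate 1 (-0.23, adjusted p = 0.118), without replicate 2 (-0.14, adjusted p = 0.179), and with normalised ratios or summed intensities (-0.12 and -0.15). With the replicate number as a block, 9 members were called in place of 3, with Rab1 at -0.18 (adjusted p = 0.0137), Rab11b at -0.12 (adjusted p = 0.0226) and Rab18 at 0.25 (adjusted p = 0.0171) among those added.

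At 24 h the Rabs called in total protein were mostly lower with LPS. At this time 37.8% of 3095 proteins were called in total protein, 17.7% higher and 20.1% lower. Of 22 Rab groups tested, 1 was higher (Rab10) and 8 lower, with a median of -0.30 beside 0.01 over all proteins. The share of Rabs called was thus near that of all proteins. Among the 7 ER to Golgi groups, 5 fell and 0 rose (median -0.43), but 3 of the 5 are Rab1, Rab1A and Rab1b, which share peptides. Of 5 early endosome Rabs 1 fell, of 7 recycling Rabs 1 rose and 1 fell, and of 2 secretion Rabs 1 fell. The summed granulocyte markers were 6.06 to 6.89 with LPS and 12.3 to 12.7 in mock runs at this time, macrophage markers 5.91 to 6.03 and 8.51 to 10, and dendritic markers 3.16 to 3.94 and 4.32 to 5.08. Their part in these differences was not tested.

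Rab3d, of secretory granules, had the largest fall among the Rabs tested, with totals of 0.931 and 0.746 against 2.38 and 1.96 (-1.37 ± 0.23, adjusted p = 1.05e-04). Rab14 read 0.931 and 0.883 against 1.74 and 1.92 (-1.01 ± 0.15, adjusted p = 1.24e-05). Rab6a read 0.763 and 0.749 against 1.07 and 1.08 (-0.50 ± 0.10, adjusted p = 3.41e-04). In all 3 the arms did not overlap, but with 2 runs in each arm this was also so for Rabs not called, such as Rab2a and Rab7a. Rab33b, on its 1 peptide, read 0.883 and 0.914 against 1.36 and 2.06 (-0.90 ± 0.19, adjusted p = 0.00553). Rab1 read 1.07 and 1.27 against 2.06 and 2.17 (-0.86 ± 0.22, adjusted p = 0.00304). Its peptides were all shared with other Rabs, and 1 of them was assigned to its group. Rab1, Rab3d, Rab6a, Rab14 and Rab33b stayed called when any single 24 h run was left out, but with the deposited normalised ratios only Rab14 of these 5 did.

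Smaller falls depended on single runs. Rab1A read 0.998 and 1.1 against 1.22 and 1.36 (-0.30 ± 0.10, adjusted p = 0.0169), and Rab1b 0.986 and 1.13 against 1.34 and 1.5 (-0.43 ± 0.12, adjusted p = 0.00774). Both calls ended without LPS replicate 1 (-0.24 and -0.33, adjusted p = 0.151 and 0.102) or without mock replicate 2 (-0.23 and -0.35, adjusted p = 0.165 and 0.0882). Rab31, of trans-Golgi to endosome transport, read 0.929 and 1.03 against 1.34 and 1.44 (-0.51 ± 0.17, adjusted p = 0.0246), and ended without any 1 of the 4 runs (adjusted p = 0.0507 to 0.14). Rab10 went the other way, at 0.872 and 0.909 against 0.621 and 0.716 (0.42 ± 0.12, adjusted p = 0.00738). The Rab10 call ended without LPS replicate 2 (0.39, adjusted p = 0.0551) or mock replicate 1 (0.32, adjusted p = 0.104). Rab11fip1 rose here too, with 1.03 and 1.15 against 0.563 and 0.604 (0.90 ± 0.14, adjusted p = 1.39e-05). With the replicate block, Rab7a (-0.31, adjusted p = 0.0194) and Rab11b (-0.29, adjusted p = 5.62e-04) were called as well. Without the run factor, which was higher by 0.24 (log2) in the LPS runs at 24 h, no member was called in total protein at this time.

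For several of these Rabs the mock values were higher at 24 h than at 12 h. Rab14 total in mock runs was 0.872 and 0.875 at 0 h, 1.03 and 1.1 at 12 h, and 1.74 and 1.92 at 24 h. Rab3d in mock runs went from 1.34 and 1.44 at 12 h to 2.38 and 1.96 at 24 h, and Rab6a from 0.749 and 0.822 to 1.07 and 1.08. With LPS over the same interval, Rab14 read 0.813 and 0.916, then 0.931 and 0.883, and Rab3d 1.04 and 1.07, then 0.931 and 0.746. Rab6a with LPS read 0.697 and 0.651, then 0.763 and 0.749, a smaller step than in mock runs. Both mock runs at 24 h lay above both at 12 h in 16 of 22 Rab groups and below in 0, beside 26.1% above and 22.9% below over all proteins. With LPS, 5 of 21 Rab groups lay above and 4 below, beside 19.2% and 20.7%.

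The higher mock values were also seen in the M form, which is made before the switch. Mock M/L of Rab14 went from 0.877 and 0.964 at 12 h to 1.36 and 1.49 at 24 h, while LPS runs read 0.67 and 0.65 at 24 h. Mock M/L of Rab6a went from 0.614 and 0.669 to 0.824 and 0.798. Both mock runs at 24 h were above both at 12 h in M/L for 11 of 22 Rab groups and below for 2, where 12.1% of all proteins were above and 49.1% below. With LPS, 0 of 21 were above and 12 below, beside 3.2% and 58.6%. These ratios are relative to the median protein of each run, and these counts were made after the 24 h values were seen, with no test. The mock run factors were -0.533 and -0.046 (log2) at 12 h and lower, -0.681 and -0.353, at 24 h. Division by them therefore raised the 24 h mock values more, and the part of this in the rise was not tested.

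**Figure D4:**
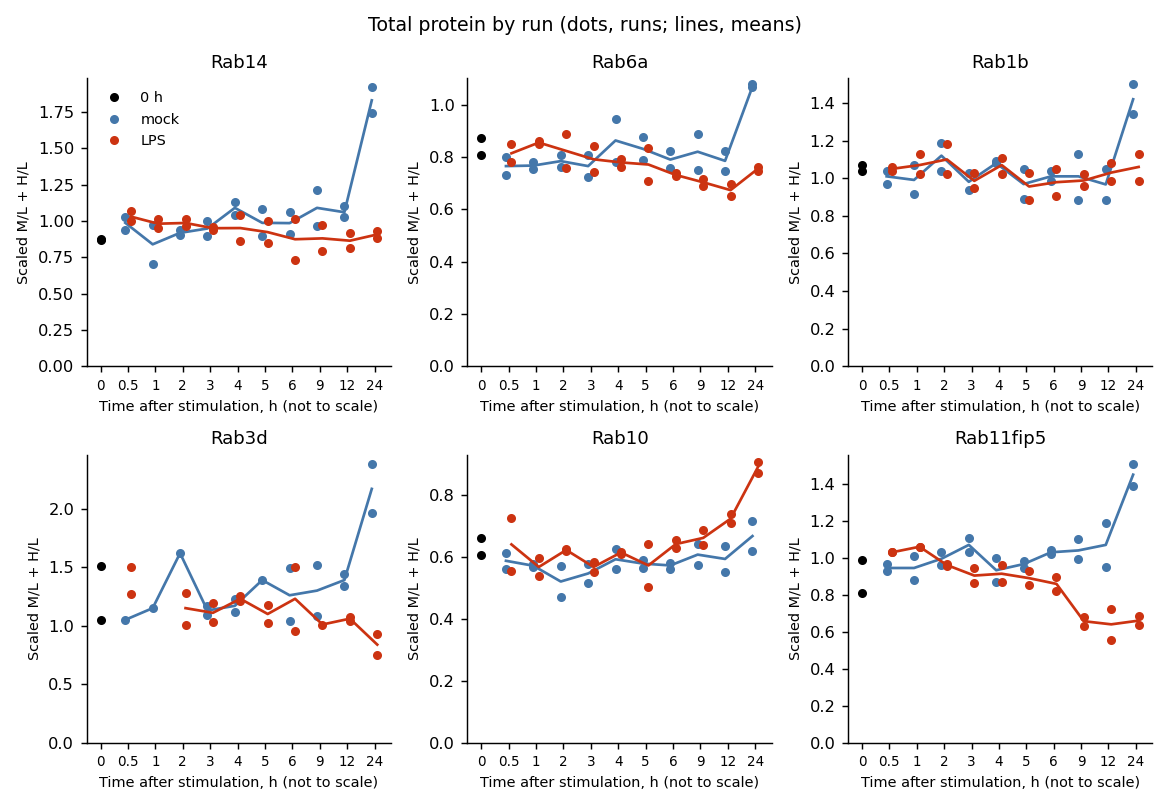
Scaled M/L plus H/L (vertical axis, total protein relative to the run median) by time in h (horizontal axis, not to scale) for Rab14, Rab6a, Rab1b, Rab3d, Rab10 and Rab11fip5. Dots are runs and lines means of the runs with a value, with 0 h in black, mock in blue and LPS in red. Mock Rab14 stands at 1.03 and 1.1 at 12 h and 1.74 and 1.92 at 24 h, while the LPS runs stand at 0.931 and 0.883.

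Early after the stimulus, over 1, 2 and 3 h, none of the 25 members tested in new protein was called by limma (0 of 25, beside 0.475% of 3371 proteins), and 2, Rab11fip1 and Rab11fip5, had an unadjusted p under 0.05. Late minus early was called for 1 of 23 members, Rab11fip1, at 1.56 ± 0.29 (adjusted p = 7.04e-04), beside 7.22% of 3144 proteins. With the deposited normalised ratios Rab11fip1 read 0.54 here and was not called (adjusted p = 0.366). In mock cells, 12 h against 0 h in total protein gave 0 calls of 25 by limma, with 1 (Rab11fip5) at an unadjusted p under 0.05, beside 9.9% of 3039 proteins.

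The share of newly made protein was read as H in percent of M plus H. At 0 h, before label, the Rab groups had a median of 12.8% (all proteins 14%), which is background. At 12 h the median was 20.4% in mock and 24.6% in LPS runs (all proteins 20.7% and 21.8%), and at 24 h 31.3% and 36.9% (all proteins 29.4% and 31.8%). Rab14 was the lowest Rab in mock runs at 24 h, at 21.9% ± 0.333 (SD, n = 2), and had 27.2% ± 1.11 with LPS. Rab7a had 37.2% ± 1.37 and 37% ± 0.643. Rab8b had 34% ± 0.761 in mock and 39.8% ± 0.56 in LPS runs. Rab11fip1 went from 34.9% ± 1.87 in mock to 68.2% ± 1.26 with LPS, and Rab11fip5 from 39.8% ± 1.93 to 26.9% ± 1.02.

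**Figure D5:**
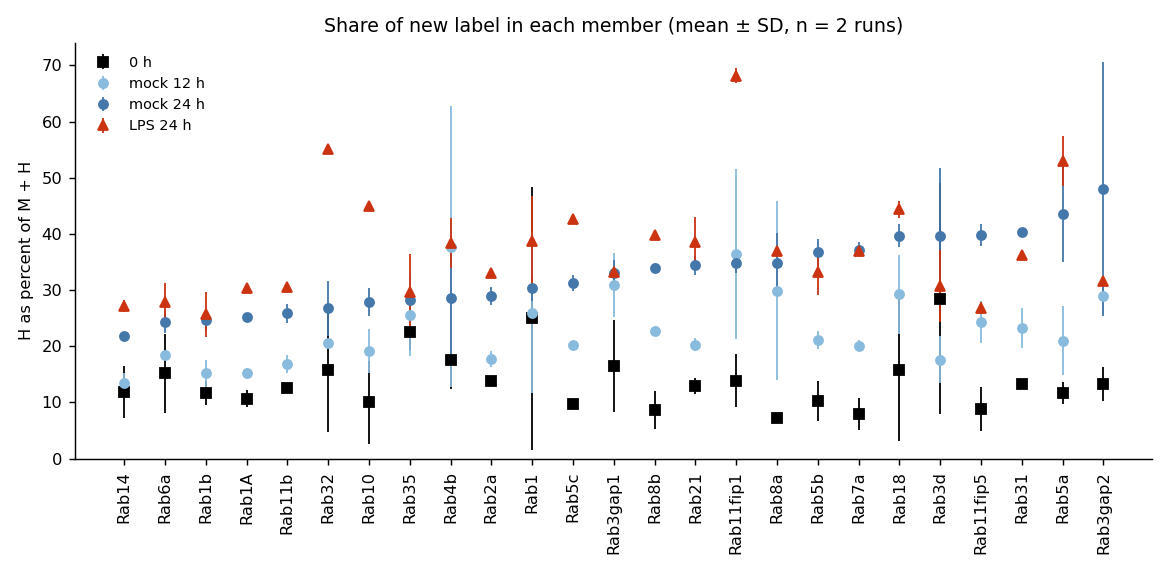
H as a percent of M plus H (vertical axis) for each member (horizontal axis, ordered by mock at 24 h), at 0 h (black squares), in mock runs at 12 h (light blue) and 24 h (dark blue) and in LPS runs at 24 h (red triangles). Symbols are means of 2 runs and bars SD. At 24 h Rab11fip1 shows 68.2% with LPS and 34.9% without, and Rab14 is the lowest Rab in mock runs at 21.9%.

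The fall of the M share per h was also read as a slope on time, from 0.5 to 12 h, of its log2, with no allowance for growth. The share falls both when the M form is lost and when the H form is added. In mock cells the median slope of the 20 Rab groups with enough values was -0.0086, beside -0.0083 over all proteins. The steepest members were Rab4b (-0.0406 ± 0.0161, a half-time of 24.6 h), Rab11fip1 (-0.0275 ± 0.0100, 36.4 h) and Rab3gap2 (-0.0233 ± 0.0178, with an interval that includes 0). Rab4b had mock H/L of 0.208 and 1.23 at 12 h, so its runs differ widely. Among Rabs with narrow error, Rab7a had -0.0178 ± 0.0021 (56.2 h), Rab11b a half-time of 103 h and Rab1A 148 h, while Rab14 had -0.0005 ± 0.0029. Rab1b, Rab35 and Rab32 had slopes above 0 (0.0048 ± 0.0061, 0.0149 ± 0.0130 and 0.0598 ± 0.0363), with intervals that include 0.

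The slope with LPS differed from mock in 3 of the 24 members tested, a share near the 13.9% called of 3342 proteins. Of the 20 Rab groups tested 1 was called, and of the 4 effector-group proteins 1 was called higher and 1 lower. The M share of Rab11fip1 fell more steeply (-0.1014 ± 0.0135, adjusted p = 3.13e-07), as did that of Rab8b (-0.0188 ± 0.0037, adjusted p = 2.10e-04). Their late M/L differed by -0.02 ± 0.07 and 0.05 ± 0.07, neither called, while their H/L rose. The M share of Rab11fip5 fell less steeply (0.0188 ± 0.0047, adjusted p = 0.00331), although both its M/L and its H/L were lower with LPS. That call ended without replicate 1 (0.0199, adjusted p = 0.0714) or replicate 2 (0.0177, adjusted p = 0.153), and could not be tested with 0 h subtracted. With the replicate block 5 were called, with Rab10 (-0.0226, adjusted p = 0.0376) and Rab18 (-0.0486, adjusted p = 0.0288) added.

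Proteins that set the Rab cycle were read beside the shares called over all proteins, 12.3% in new, 17.1% in pre-existing and 19.8% in total protein late and 37.8% in total protein at 24 h. Of 6 tested proteins of GDP dissociation and prenylation, which extract Rabs from membranes and add their lipid anchor, 0 were called by limma in new, pre-existing or total protein late, and 0 of the 5 tested in total protein at 24 h. Of the 11 exchange factors tested late in new and in total protein, 0 were called in new protein. The TRAPP subunit Trappc8 was lower in total protein late (-0.25 ± 0.08, adjusted p = 0.0338). It was also the 1 called, lower, of 14 tested in the form made before the switch (-0.33 ± 0.08, adjusted p = 0.00491). Of 9 GAPs, 1 was higher in new protein late, Tbc1d13, a Rab35 GAP (0.65 ± 0.17, adjusted p = 0.00694), which was also higher in total protein at 24 h (0.57 ± 0.13, adjusted p = 9.49e-04). The retromer-linked Tbc1d5 was higher in the form made before the switch (0.70 ± 0.13, adjusted p = 4.54e-04).

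Of 23 other effectors tested late, 0 were called in new or total protein by limma. In the form made before the switch, 25 were tested and 2 were lower, beside 17.1% of all proteins called. These were the golgins Gcc2 (-0.84 ± 0.17, adjusted p = 6.98e-04) and Golga5 (-0.15 ± 0.05, adjusted p = 0.0429), tethers at the Golgi. At 24 h, 21 were tested in total protein, with 3 lower and 1 higher, beside 37.8% of all proteins called. The total of Golga5 (-0.68 ± 0.11, adjusted p = 2.48e-05), of Gorasp2, a Golgi stacking protein (-0.42 ± 0.15, adjusted p = 0.0269), and of the vesicle motor Myo5a (-0.66 ± 0.12, adjusted p = 1.37e-04) was lower. That of the Rab5 effector Eea1 was higher (0.16 ± 0.06, adjusted p = 0.0357).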

How the data were processed

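The authors deposited, per the file headers, the M/L, H/L and H/M ratio of each protein group and run, the count of peptide pairs behind each ratio, summed channel intensity and iBAQ intensity. Column names follow MaxQuant, whose version and settings are not stated. The precision of a ratio is limited by its pairs.

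Members and lists were chosen with earlier results of these data known. The un-normalised ratios of a run were divided by a run factor (log2 -0.681 to 0.692), the median summed ratio of 2628 proteins. New (H/L), pre-existing (M/L) and total (their sum) protein were fitted on the log2 scale as means of the 21 groups with limma 3.58.1 in R 4.3.3 over all proteins. A test needed at least 4 of 6 values in each arm of a window, or both of 2 at a single time. Slopes needed 12 of 18 values in an arm. Calls were made at a Benjamini-Hochberg adjusted p under 0.05, taken over every protein in a test. The script was tested on simulated data.

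Values were given for each called member, the 3 highest and 3 lowest late changes in new and total protein, the 3 fastest and slowest slopes and the 3 most abundant. Runs of the same replicate number deviated together in LPS and mock at every time (correlations of 0.25 to 0.55), so a fit with the replicate number as a block was an alternative. Others were the deposited normalised ratios, no run factor, centring each channel, summed intensities, stricter and looser filters, subtraction of 0 h, and leaving out runs. Figures used matplotlib 3.10.9 and tables pandas 2.3.3, with numpy 2.4.6 under Python 3.11.15.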

Additional observations from a re-analysis of the deposited data

Results flagged for a closer look

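The late effect of LPS on new Rab11fip1 exceeded its early effect by 1.56 on the log2 scale, in a test of that difference itself (limma, adjusted p = 7.04e-04). With the deposited normalised ratios it was 0.54 (adjusted p = 0.366), and it stayed called in the other 3 alternatives.

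Outside the trypsin table, 3 names were listed in 1 run of another digest of unlabelled 0 h cells. AspN listed Rab11fip2, another Rab11 effector, at log10 iBAQ 5.99 and Rab7b, a lysosomal Rab, at 5.77, and LysN listed Rab23 at 5.64. Groups held 2 runs each, so values of members were not screened for outlying runs within a group. Among the run factors, LPS replicate 2 at 12 h stood apart, at 0.692 (log2) against -0.353 to 0.208 in the other replicate 2 runs. The -0.353 was that of mock at 24 h, and the next lowest of replicate 2 was -0.046, in mock at 12 h. Mock replicate 1 at 24 h had the lowest factor of all runs, at -0.681, and the fewest M/L pairs, 68083.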

How the results depend on the processing

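A setting that dropped both the run factor and LPS replicate 2 at 12 h, whose factor stood apart, was chosen after seeing the data. It left 2 called members in new, 0 in pre-existing and 1 in total protein late. No alternative reversed a called difference between LPS and mock. Over single members, 293 alternative fits kept the call and 116 ended it, all in the same direction. New protein late gave 3 called members in the fit as reported and 1 from summed intensities (1 to 3 when runs or replicates were left out). Pre-existing protein late gave 3, against 0 without the run factor, 1 from summed intensities, 9 with the replicate block and 0 to 5 with runs left out. Total protein late gave 6, against 1 without the run factor, 1 from summed intensities and 1 to 5 with runs left out. At 24 h new protein gave 2, against 1 without the run factor and 1 with any single run left out, an alternative chosen after seeing the data. Total protein at 24 h gave 11, against 0 without the run factor, 3 with the deposited normalised ratios (Rab14, Rab11fip1 and Rab11fip5) and 8 to 9 with single runs left out. LPS and mock slopes differed for 3 members and for 5 with the replicate block, and the block moved no other count of calls by over 1.5 times apart from pre-existing protein late, above.

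The deposited normalised ratios gave 3 calls in place of 0 early, 3 in place of 1 for late minus early (Rab11fip1 not among them), and 18 in place of 0 for mock 12 h against 0 h. In the last, the differences of Rab10 (0.90), Rab31 (0.82), Rab35 (1.59), Rab6a (0.75) and Rab7a (1.20) changed sign. The cause was not tested. The median mock slope of the 24 members was -0.0100 and -0.0123 over 3 to 12 h, and the median percentile of abundance 67.2 and 52.4 with AspN. Members with few peptide pairs, such as Rab33b (3 per run), Rab3d (4) and Rab1 (4), have the least precise values.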
